A study of Arabidopsis thaliana with 6 samples.

Results

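A set of 5 genes of the enzyme system that writes and erases N6-methyladenosine (m6A) could be followed by name on Affymetrix ATH1 arrays of *Arabidopsis thaliana* rosette leaves. They were chosen by locus: *HAKAI* (AT5G01160), *MTC* (AT1G19340), *FIO1* (AT2G21070), *ALKBH9B* (AT2G17970) and *ALKBH10B* (AT4G02940). Each had exactly 1 probe set, a group of short probes read together, that the platform annotation pairs with that gene alone, so these are 5 of 13356 genes with such a probe set and 5 of 22746 probe sets tested. The annotation itself names only *FIO1* by symbol and gives the other genes by locus code.

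The series compared 3 samples of line A6 with 3 samples of wild type, all from plants 3 weeks old grown at 20 °C with a daily light period of 20 h (4 h dark), and the labels call the replicates biological. Leaves 3 to 6 of the rosette were taken. A6 is described as a plant deficient in N6-adenosine methylation; from the published work on the line, it is an *mta* mutant rescued by *MTA*, the gene of the catalytic writer subunit, under the *ABI3* promoter, which is active in embryos. The labels name neither the promoter, the wild-type accession nor the number of plants per sample. A6 is a single line, so what low methylation does and what else the line carries cannot be told apart. Methylation was not measured by the arrays, and *MTA* itself is not analysed here, so the labels could not be checked by its level. The comparison bears on whether these 5 genes differ in transcript level when the catalytic subunit is depleted. They hold 3 of the 7 writer genes that were listed.

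In plants, m6A is placed on mRNA by a complex built around the methyltransferases MTA and MTB with FIP37, VIRILIZER and HAKAI. Other enzymes add the same mark to other RNAs, and demethylases of the AlkB family remove it. YTH-domain proteins read it, and in leaves the system is known for roles in trichome shape, organ growth and the timing of flowering. Of the complex that marks mRNA, *HAKAI* was the only gene analysed here, and *MTB*, *FIP37* and *VIRILIZER* were not.

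None of the 5 genes passed the test between A6 and wild type (limma, adjusted p under 0.05 over all probe sets), where 9.77% of all probe sets did. Of the 5 genes, 3 had lower and 2 had higher mean values in A6, with log2 differences (A6 minus wild type) from -0.24 to 0.16 and a median of -0.18. The median over all probe sets was -0.025. At an unadjusted p under 0.05 the count was 1 of 5, *HAKAI*, and 24.3% of all probe sets reached that level. The 95% intervals of all 5 differences together spanned -0.59 to 0.51, that is, from 0.666-fold to 1.42-fold, so with all 6 arrays and no covariate each interval excluded a 2-fold change in either direction. A p above the threshold does not show that the levels were equal. The values below are log2 units centred so that each probe set has a median of 0: they compare arrays for 1 gene and give neither absolute levels nor an order of levels between genes.

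*HAKAI*, an E3 ubiquitin ligase-type subunit of the mRNA writer complex, had the lowest p of the 5 genes. Its values were -0.053, -0.14 and -0.21 on the arrays of A6 and 0.053, 0.099 and 0.16 on those of wild type, each in the order of replicates 1 to 3. All A6 values thus lay below all wild-type values, as they did for 15.9% of all probe sets; for 13.1% all A6 values lay above. The lines overlapped for the other 4 genes. Mean and SD (n = 3) were -0.13 ± 0.078 for A6 and 0.10 ± 0.053 for wild type, which is a difference of -0.24 (SE 0.096) with a 95% interval of -0.46 to -0.017, not adjusted for the number of probe sets. As a ratio this is 0.848-fold with an interval of 0.727 to 0.988. Limma gave an unadjusted p of 0.0381 and an adjusted p of 0.173, rank 4992 of 22746 by p. The difference was not called, so no drop is shown, and in whole leaves less RNA per cell and fewer expressing cells could not be told apart.

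*MTC*, an MT-A70 family protein related to human METTL4, varied more among wild-type samples than between the lines. It read -0.031, 0.19 and 0.031 on the arrays of A6 and 0.18, -0.104 and -0.37 on those of wild type, each in the order of replicates 1 to 3. Wild-type replicate 1 was among the highest of the 6 values and replicate 3 the lowest, so the A6 values fell inside the wild-type range except for replicate 2. The difference was 0.16 (SE 0.15, 95% interval -0.18 to 0.51, adjusted p = 0.594), or 1.12-fold. Without wild-type replicate 1 it was 0.301 (adjusted p = 0.161), and without wild-type replicate 3 it was 0.028 (adjusted p = 0.948).

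*FIO1*, the counterpart of human METTL16, methylates the U6 small nuclear RNA of the spliceosome, and its mutants flower early. Its values were -0.501, -0.0047 and 0.0047 on the arrays of A6 and -0.029, 0.12 and 0.11 on those of wild type, each in the order of replicates 1 to 3. A6 replicate 1 was far below the other 5 arrays, and the other 2 A6 values lay within the wild-type range. The mean difference of -0.24 (SE 0.15, 95% interval -0.59 to 0.11, adjusted p = 0.409) was as large as that of *HAKAI* but with a wider error. Without A6 replicate 1 it was -0.0695 (adjusted p = 0.848), so most of it rested on that array.

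Both erasers had small differences of opposite sign. *ALKBH9B*, an m6A demethylase known from infection by alfalfa mosaic virus, read -0.14, -0.024 and 0.036 on the arrays of A6 and 0.42, 0.024 and -0.034 on those of wild type, each in the order of replicates 1 to 3. Wild-type replicate 1 stood above the other 5 arrays, which lay between -0.14 and 0.036, and the groups overlapped. The difference was -0.18 (SE 0.14, 95% interval -0.497 to 0.14, adjusted p = 0.513), and without wild-type replicate 1 it was -0.038 (adjusted p = 0.877).

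*ALKBH10B*, the demethylase that acts in the floral transition, read 0.030, 0.13 and -0.030 on the arrays of A6 and -0.21, 0.047 and -0.050 on those of wild type, each in the order of replicates 1 to 3. The groups overlapped, and wild-type replicate 1 was again the farthest array, this time as the lowest. The difference was 0.12 (SE 0.11, 95% interval -0.13 to 0.37, adjusted p = 0.601), or 1.08-fold. Without wild-type replicate 1 it was 0.046 (adjusted p = 0.848).

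**Figure D1:**
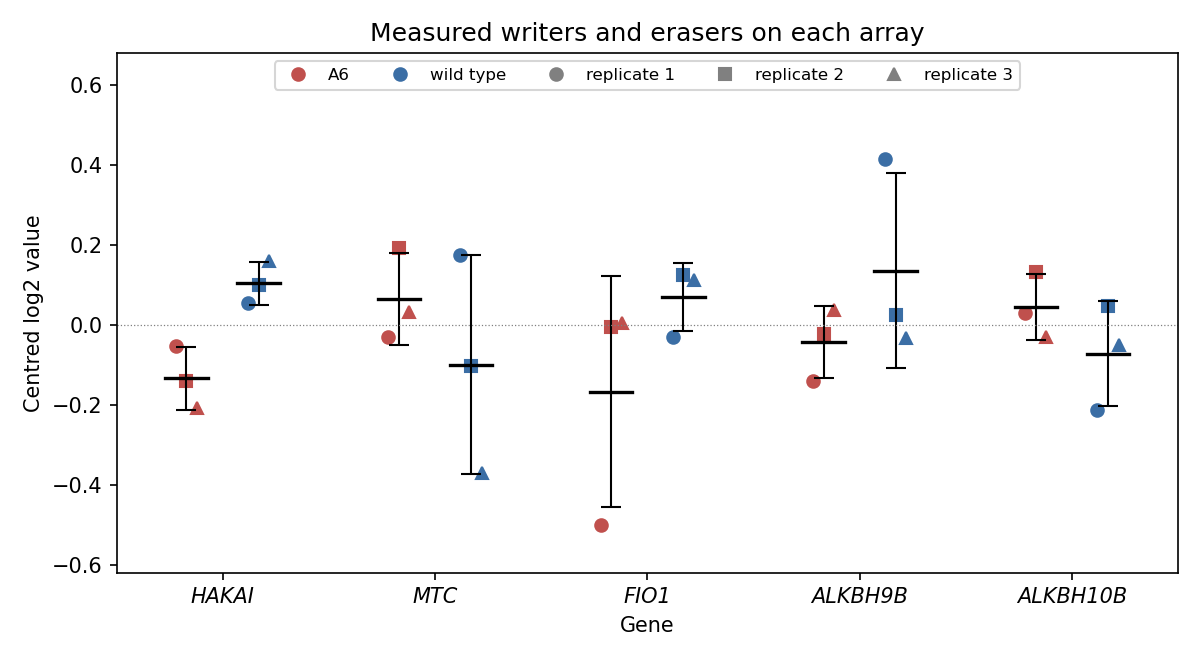
Centred log2 value (y axis) of each gene (x axis) on every array, A6 in red and wild type in blue, with the marker shape giving the replicate and black bars the mean and SD of 3 samples. The A6 and wild-type points are apart for *HAKAI* only; A6 replicate 1 is low for *FIO1* (-0.501) and wild-type replicate 1 is high for *ALKBH9B* (0.42).

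Wild-type replicate 1 and the signs of RNA quality moved with some of these values. The mean 3' minus 5' difference of 6 pairs of control probe sets, which follows how intact the RNA or how long the labelled copies are, lay from -0.033 to -0.021 in A6 and from 0.016 to 0.091 in wild type, with no overlap and with the highest value in wild-type replicate 1. That array also had one of the 2 highest means of the hybridisation spike-ins (0.46; A6 replicate 3 had 0.49 and the other 4 arrays -0.38 to 0.023). With the 3' minus 5' difference as a covariate, both erasers changed sign, *ALKBH9B* to 0.22 (adjusted p = 0.646) and *ALKBH10B* to -0.11 (adjusted p = 0.811). Under the same covariate *MTC* had 0.52 (adjusted p = 0.332), *FIO1* -0.44 (adjusted p = 0.470) and *HAKAI* -0.28 (adjusted p = 0.496). The intervals of *MTC* (-0.088 to 1.14) and *FIO1* (-1.13 to 0.24) then no longer excluded a 2-fold change. The covariate separates the lines, so its part and that of the line cannot be told apart. Without both arrays with high spike-ins, *MTC* had 0.32, *FIO1* -0.37 and *ALKBH9B* -0.078 (adjusted p = 0.192, 0.206 and 0.725).

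*HAKAI* was the steadiest of the 5 genes across settings. Its difference stayed between -0.28 and -0.201 when any 1 array was left out and between -0.28 and -0.21 under the other alternatives, while its adjusted p ranged from 0.128 to 0.496 over all 15. The other genes moved more. Across the 6 fits with 1 array left out *MTC* ranged from 0.028 to 0.301, *FIO1* from -0.32 to -0.0695, *ALKBH9B* from -0.26 to -0.038 and *ALKBH10B* from 0.046 to 0.18. In none of the 15 alternatives did any of the 5 genes pass. The lowest adjusted p was 0.0733, for *FIO1* with array weights (limma), where the difference was -0.44. That setting gave the largest weight, 3.19, to A6 replicate 1, the array on which *FIO1* was far below the others. The weights of the other arrays were 0.33 to 1.67.

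**Figure D2:**
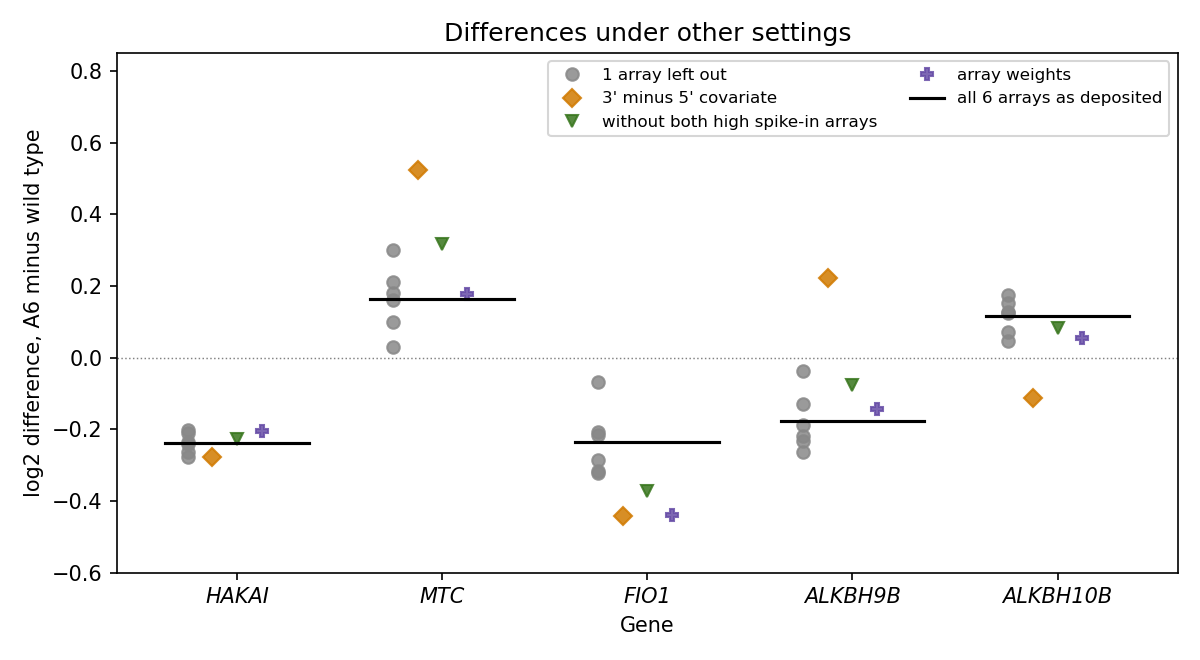
Log2 difference between A6 and wild type (y axis) of each gene (x axis) with all 6 arrays (black line), with 1 array left out (grey, 6 points), with the 3' minus 5' covariate, without both arrays with high spike-ins, and with array weights. *HAKAI* keeps close to -0.24, while *ALKBH9B* and *ALKBH10B* cross 0 with the covariate.

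The 5 genes differed more in their spread than in the size of their differences when placed among all probe sets. The SD of *HAKAI* within the lines, pooled over both, was 0.067, at the 7.22nd percentile of all probe sets, and that of *ALKBH10B* was 0.11, at the 26.0th percentile. *ALKBH9B*, *MTC* and *FIO1* had pooled SDs of 0.18, 0.21 and 0.21, at the 63.5th, 72.5th and 73.6th percentiles. By the size of the difference itself, *HAKAI* and *FIO1* lay at the 66.2nd and 66.0th percentiles, *ALKBH9B* at the 56.1st, *MTC* at the 53.1st and *ALKBH10B* at the 41.8th.

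The error of each gene sets the observed difference that would have been called on these arrays. With the largest unadjusted p that passed in this comparison, 0.00487, a difference of 0.37 (1.29-fold) would have been needed for *HAKAI* and of 0.42 (1.34-fold) for *ALKBH10B*. For *ALKBH9B*, *MTC* and *FIO1* the needed differences were 0.53, 0.58 and 0.58, or 1.45-, 1.49- and 1.499-fold. Each observed difference was below its limit. The limits hold for observed differences, with the error of each gene as estimated from 3 arrays a line. They do not give the size of true change that could be detected.

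**Figure D3:**
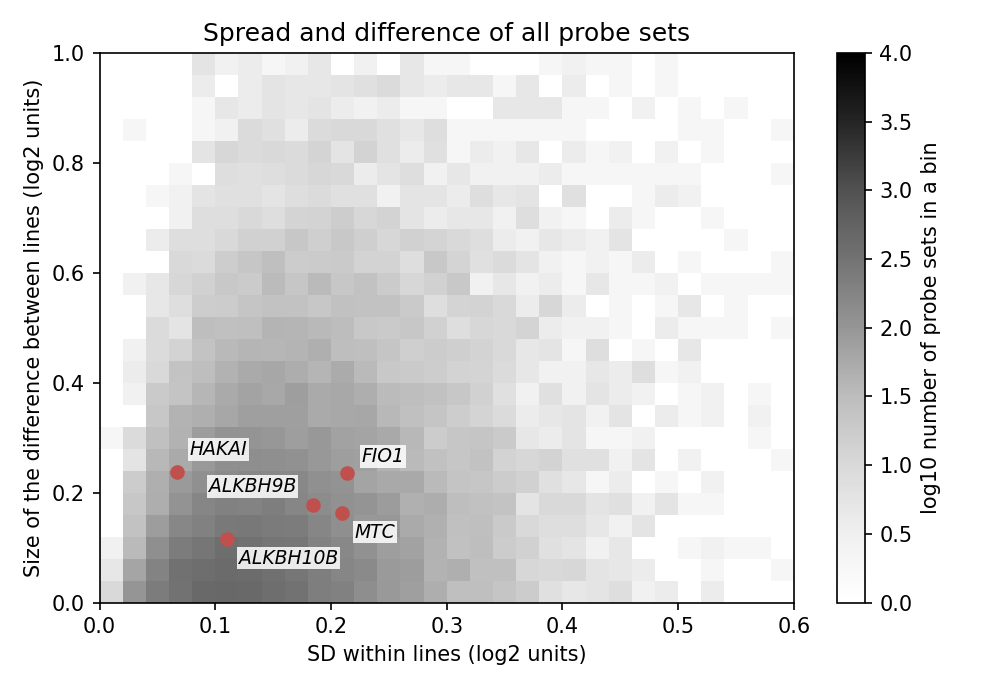
SD within lines (x axis) against the size of the difference between the lines (y axis), both in log2 units, with the grey scale giving the log10 number of probe sets in each bin and the 5 genes in red. The axes hold 21969 of the probe sets and leave out 777 with larger values; *HAKAI* lies at the left, with an SD of 0.067, and all 5 genes lie below a difference of 0.24.

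The 5 genes did not vary as 1 group across the arrays. Over the 6 arrays Pearson's r between pairs of them ran from -0.81 (*ALKBH9B* with *ALKBH10B*) to 0.45 (*MTC* with *ALKBH9B*). With the mean of each line removed, the erasers still had r = -0.73, *MTC* and *ALKBH9B* had 0.86 and *HAKAI* and *ALKBH9B* had -0.75. These are descriptions over 6 arrays that share their normalization, and for the erasers the array farthest out was wild-type replicate 1.

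The difference between a writer and an eraser on the same array can be read from their centred values, for 6 pairs. *HAKAI* minus *ALKBH10B* was -0.084, -0.27 and -0.18 on the arrays of A6 and 0.27, 0.052 and 0.21 on those of wild type, each in the order of replicates 1 to 3, with no overlap. *MTC* minus *ALKBH9B* was 0.11, 0.22 and -0.0046 in A6 and -0.24, -0.13 and -0.34 in wild type, apart in the other direction. *FIO1* minus *ALKBH10B* ran from -0.53 to 0.035 in A6 and from 0.078 to 0.18 in wild type. The lines overlapped in the remaining pairs, whose mean differences between the lines were -0.060 for *HAKAI* minus *ALKBH9B*, 0.047 for *MTC* minus *ALKBH10B* and -0.058 for *FIO1* minus *ALKBH9B*. In each pair that was apart, the genes themselves differed in opposite directions, which adds up in their difference. Of all probe sets taken singly, 29.0% were apart, and the share over pairs of probe sets was not computed. The pairs share genes and went both ways, no test was made of them, and no shift between writers and erasers as groups is shown.

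No relative of the erasers was called. Of 4 other AlkB-family genes measured by name, 0 passed with limma, where 9.77% of all probe sets did. An unadjusted p under 0.05 was reached by 0 of them and by 24.3% of all probe sets. The values of the lines overlapped for each, and were apart for 29.0% of all probe sets. With 4 genes and these shares, counts of 0 say little about the family. *ALKBH9A* and *ALKBH6* had differences of -0.16 (SE 0.13) and -0.26 (SE 0.15), and *ALKBH10A* and *ALKBH1A* of 0.063 (SE 0.12) and 0.13 (SE 0.102). With array weights, under which 20.6% of all probe sets were called, *ALKBH6* had -0.43 and passed (adjusted p = 0.0402). Adding the 3' minus 5' difference as a covariate turned the sign of *ALKBH9A* (0.22), as of *ALKBH9B*, and of *ALKBH10A* (-0.13).

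Enzymes that methylate other RNAs gave a mixed picture without a call, where 9.77% of all probe sets were called. Of 6 measured genes 5 had mean values above wild type, beside 45.1% of all probe sets, and the median difference was 0.12; for *TRM6* and *TRM61* the sign turned when some single arrays were left out. *DIM1A* and *DIM1B*, adenosine methylases that act on ribosomal RNA, had differences of 0.24 (SE 0.095, adjusted p = 0.162) and 0.29 (SE 0.11, adjusted p = 0.140). All 3 A6 values of *DIM1A*, 0.077 to 0.22, lay above the wild-type values of -0.16 to -0.077, and *DIM1B* was apart in the same way. *TRM4B* (AT2G22400), a 5-methylcytosine methyltransferase, had the lowest value of the 6, -0.29 (SE 0.094, adjusted p = 0.0992), with A6 at -0.14 to -0.088 and wild type at 0.088 to 0.25. *TRM4A* had 0.197, and *TRM6* and *TRM61*, partners in the tRNA 1-methyladenosine methyltransferase, had 0.051 and 0.019. In 3 of the 6 genes the lines did not overlap, beside 29.0% of all probe sets. With array weights (limma) *DIM1B* (0.305, adjusted p = 0.0477) and *TRM4B* (-0.33, adjusted p = 0.01996) passed, as did 20.6% of all probe sets.

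Among the 14 related genes 1 passed, where 9.77% of all probe sets did. This was *LSM6A*, which encodes a subunit of the LSM ring that binds U6, the RNA methylated by FIO1. A link between its level and FIO1 was not tested. *LSM6A* read -0.18, -0.51 and -0.31 on the arrays of A6 and 0.18, 0.499 and 0.37 on those of wild type, each in the order of replicates 1 to 3. The lines did not overlap. *LSM6A* fell by 0.68 (SE 0.13, limma adjusted p = 0.0169), to 0.623-fold with an interval of 0.506 to 0.767. It no longer passed when replicate 2 of A6 (adjusted p = 0.0652) or replicate 2 or 3 of wild type (0.067 and 0.0569) was left out, and it passed without each of the other 3 arrays. Under the 3' minus 5' covariate its difference was -1.004 with adjusted p = 0.0777, and an ordinary linear model gave adjusted p = 0.109.

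The other 3 measured LSM genes did not pass. *LSM6B*, the close paralogue of *LSM6A*, had -0.028 (SE 0.21), with wild-type values from -0.54 to 0.19, and crossed 0 when 1 array was left out. *LSM3A* had -0.24 (SE 0.15) and *LSM3B* -0.11 (SE 0.095). The median of the 4 was -0.17, and 4 of 4 had lower values in A6, beside 54.9% of all probe sets. Closely related paralogues can share probes, which was not tested.

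In all, 14 related genes beside the 5 were measured by name, of which 0 rose and 1 fell with limma and 4 had an unadjusted p under 0.05 (24.3% of all probe sets did), while 5.03% of all probe sets rose and 4.74% fell. Of the 14, 7 had values above 0 and 7 below, with a median of -0.0042. The YTH-domain readers, the S-adenosylmethionine cycle that supplies the methyl groups, and the flowering genes tied to *ALKBH10B* and *FIO1* were not analysed here. Of 12 listed markers of organs and cell types, those of leaves included, 7 were measured. Of these 7, 0 passed with limma and 0 had an unadjusted p under 0.05, with differences from -0.23 to 0.15. The mesophyll markers were not analysed here, and centred values cannot show whether a marker was present.

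**Figure D4:**
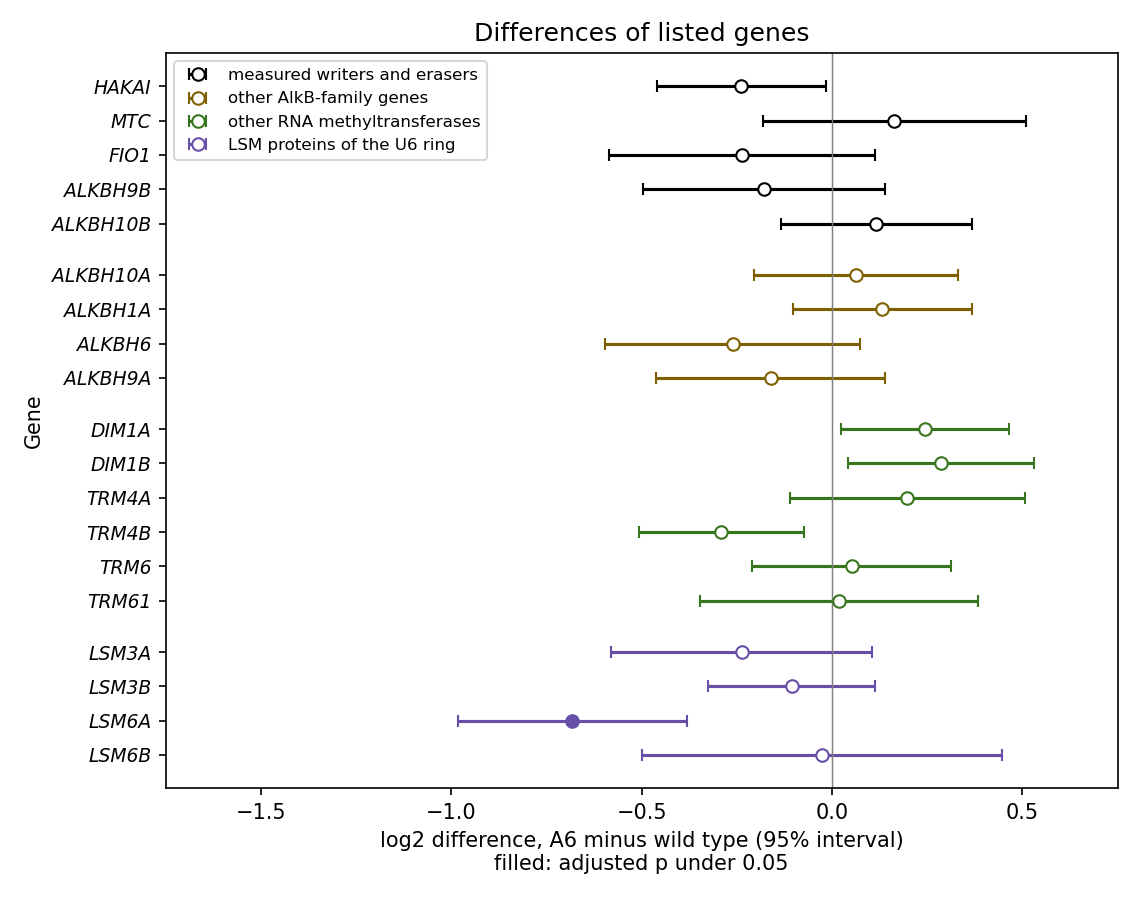
Log2 difference between A6 and wild type (x axis) with its 95% interval for the 5 genes (black) and 14 related genes (y axis), by group; filled points had a limma adjusted p under 0.05. Only *LSM6A* (-0.68) is filled, and among the 5 genes only the interval of *HAKAI* leaves out 0.

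The genes next to the 5 on the chromosomes were looked up in RefSeq order. AT4G02930, 2 genes from *ALKBH10B*, rose by 0.85 (SE 0.12, adjusted p = 0.00484). It passed with any 1 array left out, and the 3' minus 5' covariate brought it to 0.49 (adjusted p = 0.206), while an ordinary linear model gave adjusted p = 0.066. AT1G19330, next to *MTC*, rose by 0.38 (SE 0.094, adjusted p = 0.0417), but among the fits with 1 array left out it passed only without replicate 1 of wild type (adjusted p from 0.0829 to 0.168 in the others), and the covariate gave 0.48 (adjusted p = 0.222) and an ordinary linear model adjusted p = 0.0638. The remaining 6 measured neighbours did not pass, the lowest adjusted p being 0.0721, for AT1G19370 (-0.48). Over all probe sets 9.77% passed, and whether neighbours were called more often was not tested. AT2G17960, next to *ALKBH9B*, had a difference of -0.077 and followed it over the 6 arrays with r = 0.91.

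Genes with a symbol whose centred values followed each of the 5 most closely over the 6 arrays were taken by the highest Pearson's r. *HAKAI* was followed by *ATRX* (r = 0.99) and *DER2.1* (r = 0.99), and *MTC* by *GIS* (0.98) and *EXPB1* (0.98). *FIO1* was followed less closely, by *UGT71B8* (0.93) and *MMP* (0.91). For *ALKBH9B* these were *APPB1* (0.99) and *BGLU42* (0.98), and for *ALKBH10B* they were *SIZ1* (0.99) and *SAMDC* (0.98), with differences of 0.16 and 0.11. Of these 10 genes *DER2.1* alone passed, where 9.77% of all probe sets did. It was lower in A6 (a difference of -0.63, SE 0.13, limma adjusted p = 0.0228). The 10 genes were chosen on these same arrays with the line difference left in. A follower of *HAKAI*, whose lines did not overlap, is thus picked partly for such a difference, so this call is no separate evidence. For *DER2.1*, leaving out replicate 2 or 3 of A6 gave adjusted p = 0.074 and 0.0591, and leaving out replicate 2 or 3 of wild type gave 0.0867 and 0.0765. The covariate gave a difference of -0.81 (adjusted p = 0.150) and an ordinary linear model an adjusted p of 0.122. An r of at least 0.9 was reached by 2 of 1579 such genes with *FIO1*, and of 1580 such genes by 12 with *MTC*, 26 with *ALKBH10B*, 50 with *ALKBH9B* and 70 with *HAKAI*. The order changed with the mean of each line removed: 12 with *FIO1*, 15 with *HAKAI*, 40 with *MTC*, 71 with *ALKBH10B* and 101 with *ALKBH9B*. The r of *MMP* with *FIO1* was then 0.98 and that of *DER2.1* with *HAKAI* 0.92.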

How the data were processed

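Gene expression in rosette leaves was measured on 6 arrays, 3 of A6 and 3 of wild type, grouped by their titles. The values deposited by the authors, taken as log2, come from RMA according to the processing notes of the submitters (per the labels), where no version and no log base is given. RMA corrects background, normalizes arrays by quantiles and summarises probes. The values are also centred, with a median of 0 (within 5e-07) for each of 22810 probe sets, so no signal over background could be given; the number of arrays limits the precision. The 64 control probe sets were kept out of the tests. Names came from the platform annotation, with 13513 probe sets of 1 gene, and from RefSeq (TAIR10.1). Differences were tested, two-sided, with limma 3.58.1 (lmFit, then eBayes; R 4.3.3) over 22746 probe sets with the Benjamini-Hochberg adjustment at 0.05, and the procedure was tested on simulated data. P-values measure only the spread between these samples.

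The genes and lists were chosen with earlier results of these data known. Named are the 5 genes, the measured listed genes, the nearest measured gene among 3 neighbours on each side, and the 2 genes with a symbol most like each of the 5 by Pearson's r. Alternatives were leaving out each array, a replicate block, array weights, quantile normalization, array medians at 0, the 3' minus 5' covariate, leaving out the arrays with high spike-ins (mean over 14 control probe sets above 0.3), robust eBayes, an ordinary linear model and 1-gene probe sets alone.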

Additional observations from a re-analysis of the deposited data

Results flagged for a closer look

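A control probe set outside the tests separated the lines more than any of the 5 genes did. The 25S ribosomal RNA probe set read 0.83, 0.51 and 0.64 on the arrays of A6 and -0.72, -1.06 and -0.51 on those of wild type, a difference of 1.42.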

How the results depend on the processing

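The count of 0 of the 5 genes held under all 15 alternatives, and 73 of their 75 differences kept their sign; the exceptions were *ALKBH9B* (0.22) and *ALKBH10B* (-0.11) with the 3' minus 5' covariate. The count of 2222 called probe sets ranged from 766 to 3484 with 1 array left out, and was 4691 with array weights, 290 with the covariate, 3465 without both arrays with high spike-ins, 229 with an ordinary linear model and 1166 with 1-gene probe sets alone. Of the 14 related genes, 1 was called as reported, 0 to 1 with 1 array left out, 4 with array weights, and 0 with the covariate, the ordinary linear model or the replicate block. *TRM61* changed sign with array weights (-0.18), quantile normalization (-0.019), the covariate (-0.36) and when both high spike-in arrays were dropped (-0.21), and ranged from -0.11 to 0.15 with 1 array left out. *ALKBH10A* had -0.036 with array weights, -0.13 with the covariate, -0.075 without both arrays with high spike-ins, and -0.0204 to 0.13 with 1 array left out. *ALKBH9A* had 0.22 with the covariate. With 1 array left out *LSM6B* ranged from -0.26 to 0.102 and *TRM6* from -0.0071 to 0.12. The cause of these shifts was not tested.

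Same-numbered samples did not deviate together (correlations of -0.13, 0.18 and -0.16), so the numbers were not taken as pairs. With the replicate block 1526 probe sets were called, *HAKAI* had an adjusted p of 0.301, *LSM6A* of 0.0543, AT1G19330 of 0.0967 and DER2.1 of 0.061. No further probe set lists any of the 5 genes among several.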
